A study of Mus musculus with 3 samples.

Results

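Neurogenic retinal precursors are the cells of the developing retina that have left, or are leaving, the progenitor pool and carry the transcripts of neurogenesis. They were found here in droplet libraries of single retinal cells, 1 library per genotype, that had been prepared to study retinal vessels. The cells were chosen by their own counts of UMIs (unique molecular identifiers, each marking 1 captured transcript). A neurogenic precursor needed at least 1000 UMIs with at most 15% of them mitochondrial, at least 8 UMIs per 10000 over *Neurog2*, *Dll3*, *Neurod4*, *Mybl1* and *Vxn* with at least 2 of these 5 genes detected, and at least 1 UMI of *Neurog2* or *Dll3*. It also had to lie under 3 per 10000 for the cycling genes *Top2a*, *Mki67*, *Cenpf*, *Nusap1* and *Birc5*, under 5 for the endothelial genes *Cdh5*, *Pecam1* and *Egfl7*, and under 5 for the microglial genes *Cx3cr1*, *C1qa* and *Csf1r*. Of 29084 cells that passed the UMI and mitochondrial limits, 1900 were neurogenic precursors, 1047 from the WT library, 768 from the *Tspan12* KO library and 85 from the *Ctnnb1* cKO library.

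The mice, of C57BL/6 background, were taken at postnatal day 6, and each library came from the pooled retinas of 5 mice of 1 genotype, after magnetic beads against CD31 (endothelial cells) and CD11b (microglia) had enriched other cells. The groups were wild-type mice (WT), mice with a knockout of *Tspan12* (*Tspan12* KO), a membrane protein that assists Norrin signaling, and *Ctnnb1* flox/flox; *Pdgfb*-iCreER mice (*Ctnnb1* cKO). The last received tamoxifen daily for 3 days from postnatal day 1, and Cre under *Pdgfb* acts in endothelial cells, so that the precursors themselves were not its target. WT and knockout mice came from different litters. With 1 library per genotype, genotype, library and mouse pool cannot be told apart, no test was possible, and every interval below is at 95% and covers counting error only. The precursors are neural cells that the beads did not select.

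During retinal development, dividing progenitors receive Notch signals from their neighbours and keep *Hes1* and *Hes5* high. Cells that switch on proneural basic helix-loop-helix factors such as *Neurog2* make the Notch ligands *Dll1*, *Dll3* and *Dll4*, leave the cell cycle and begin to differentiate. In the mouse, ganglion, horizontal, cone and most amacrine cells are born early, while rods, bipolar cells and Muller glia are still being made in the first days after birth. *Otx2* directs photoreceptor and bipolar fates, and *Ptf1a*, *Prdm13* and *Tfap2b* belong to the amacrine and horizontal fates.

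Of the 5 genes that defined the population, *Neurog2* (ENSMUSG00000027967) is a proneural factor, *Dll3* (ENSMUSG00000003436) a divergent Notch ligand, and *Neurod4* (ENSMUSG00000048015) a neuronal differentiation factor of the same helix-loop-helix family. *Mybl1* (ENSMUSG00000025912) encodes a *Myb*-type transcription factor, and *Vxn* (ENSMUSG00000067879) the neurogenesis factor vexin. Proneural factors bind the E-box, CANNTG, so the 250 bases before the annotated start of these genes are shown as the sequence to which the shared expression refers. RefSeq (GRCm38.p6) gave such a window for 3 of the 5 genes, with 4 start sites, and capitals mark CANNTG, which reads the same on either strand. The windows lie at chr3:127632886-127633135 on the plus strand for *Neurog2*, at chr7:28301786-28302035 on the minus strand for *Dll3*, and at chr10:130280255-130280504 on the minus strand for the first start of *Neurod4*. They are written 5′ to 3′ in the direction of the gene.
Neurog2: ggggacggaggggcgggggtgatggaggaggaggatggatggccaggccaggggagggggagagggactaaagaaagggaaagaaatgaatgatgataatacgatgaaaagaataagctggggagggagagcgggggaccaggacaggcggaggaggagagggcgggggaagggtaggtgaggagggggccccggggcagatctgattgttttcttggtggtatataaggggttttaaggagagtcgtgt
Dll3: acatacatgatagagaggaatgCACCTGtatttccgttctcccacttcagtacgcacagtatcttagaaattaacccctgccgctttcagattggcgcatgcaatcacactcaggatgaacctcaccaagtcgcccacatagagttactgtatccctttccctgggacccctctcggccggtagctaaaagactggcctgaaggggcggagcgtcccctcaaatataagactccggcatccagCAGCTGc
Neurod4: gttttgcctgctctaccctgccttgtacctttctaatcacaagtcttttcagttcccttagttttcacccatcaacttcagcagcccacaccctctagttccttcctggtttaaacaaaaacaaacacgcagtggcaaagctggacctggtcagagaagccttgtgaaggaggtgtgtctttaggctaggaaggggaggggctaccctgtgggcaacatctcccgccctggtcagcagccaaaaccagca
The *Dll3* window held 2 E-boxes, which began 228 and 7 bases before the start, and the second of them was CAGCTG. The *Neurog2* window held 0, as did both *Neurod4* windows. Of 32851 windows of the same length, 66.2% held CANNTG and 13.0% held CAGCTG. The Notch effector *Rbpj* binds TGGGAA, which was in 21.6% of all windows, the *Otx2* and *Crx* motif TAATCC in 6.25% and the E-box CAGATG in 14.4%, each searched on both strands, and none of these was in the windows above. These matches describe letters only.

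To see how the 5 rule genes combined, their detection was counted per cell without thinning. *Neurod4* was detected in 92.5% of WT, 90.9% of the *Tspan12* KO and 89.4% of *Ctnnb1* cKO precursors, and *Dll3* in 85.6%, 83.3% and 78.8%. *Neurog2* was detected less often, in 36.1%, 43.2% and 32.9% in the same order. *Neurog2* and *Dll3* occurred in the same cell in 21.7%, 26.6% and 11.8% of the precursors, so most cells entered through *Dll3* without a detected *Neurog2* (63.9%, 56.8% and 67.1%). The median sum of the rule genes was 18.2 per 10000 for WT, 12.9 for *Tspan12* KO and 14.8 for *Ctnnb1* cKO precursors, against 3.40, 2.93 and 0 over all cells kept.

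The levels of the rule genes were then read from UMIs summed over the precursors of each library and given as CPM, their usual scaling to a common total. *Neurog2* was at 137 CPM (130 to 144) for WT, 102 (96.1 to 109) for *Tspan12* KO and 79.5 (58.8 to 105) for *Ctnnb1* cKO. *Dll3* was at 137 CPM (131 to 144), 117 (111 to 124) and 131 (104 to 163). *Neurod4* was at 951 CPM (933 to 969), 640 (624 to 657) and 830 (760 to 905). *Mybl1* was at 444, 318 and 276 CPM and *Vxn* at 118, 88.2 and 112 CPM in the same order. These values chose the cells and are a description, and for *Dll3* the order of the libraries turned with the setting. Its log2 ratio to WT was -0.23 for *Tspan12* KO and 0.12 at 12 per 10000, and -0.06 for *Ctnnb1* cKO and 0.52 as a mean over cells. In microglia of the same libraries, which should lack them, *Neurog2* was at 3.45, 7.43 and 1.27 CPM and *Dll3* at 2.51, 6.06 and 2.14 CPM, a measure of free RNA.

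**Figure D1:**
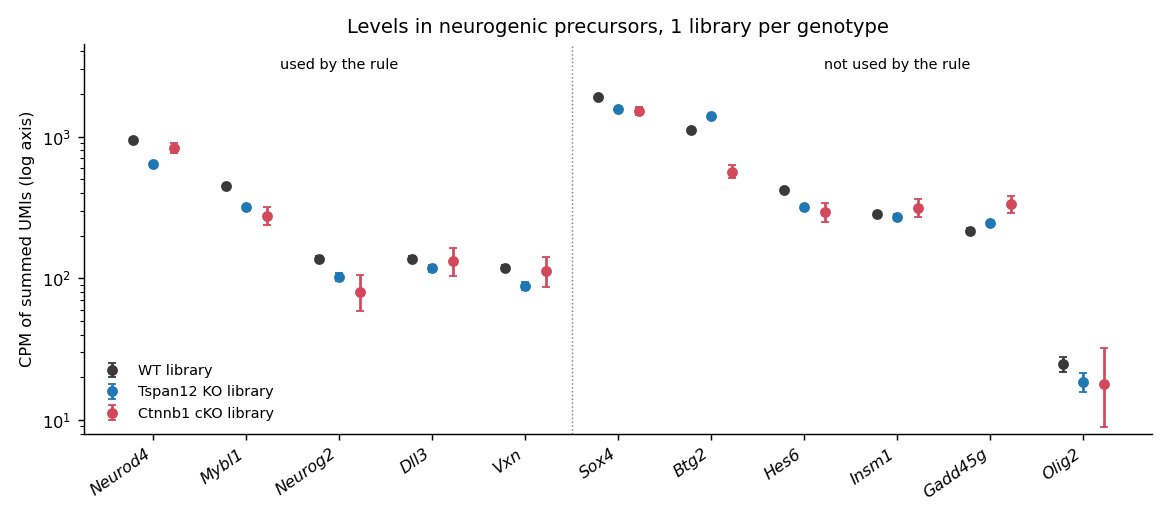
Levels of the 5 rule genes (left of the dotted line) and of 6 other precursor genes in neurogenic precursors, in CPM on a log axis. Points are libraries and bars are exact 95% Poisson intervals. *Neurog2* lies between 79.5 and 137 CPM and *Btg2* between 564 and 1393 CPM across the libraries.

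The name of the population was checked against precursor genes that the rule did not use, in cells thinned at random to 2000 UMIs so that depth did not set the share. This left out 11 WT, 34 *Tspan12* KO and 19 *Ctnnb1* cKO precursors with fewer UMIs. *Hes6*, a helix-loop-helix factor of committed neuronal precursors, had a UMI in 54.8% (51.7 to 57.9%) of 1036 WT, 54.0% (50.3 to 57.6%) of 734 *Tspan12* KO and 56.1% (43.3 to 68.3%) of 66 *Ctnnb1* cKO precursors. In microglia *Hes6* was found in 8.46%, 11.9% and 8.27%, and in photoreceptor precursors, the cells with *Otx2*, *Crx*, *Nrl*, *Nr2e3* and *Prdm1* but without the neurogenic sum, in 30.4%, 28.9% and 36.2%. *Gadd45g*, a growth arrest gene that proneural factors switch on, was found in 31.2% (28.4 to 34.1%), 39.6% (36.1 to 43.3%) and 45.5% (33.1 to 58.2%) of the precursors, against 4.93%, 11.7% and 22.1% of photoreceptor precursors. Both genes were therefore more frequent in neurogenic than in photoreceptor precursors in each library.

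Other precursor genes did not follow the name. *Insm1*, a zinc finger factor of newborn neurons, had a UMI in 34.7% (31.8 to 37.6%) of WT, 38.3% (34.8 to 41.9%) of the *Tspan12* KO and 27.3% (17.0 to 39.6%) of *Ctnnb1* cKO precursors, below the 55.2%, 50.8% and 41.4% of photoreceptor precursors. *Sstr2*, a somatostatin receptor listed as a precursor marker, was at 2.20 CPM for WT, at 1.58 CPM for *Tspan12* KO and had 0 UMIs in *Ctnnb1* cKO precursors, where 3 counts would be 4.86 CPM. *Olig2*, which marks progenitors close to their last division, was rare, with a UMI in 5.69%, 5.04% and 3.03% of the precursors, but rarer still in photoreceptor precursors at 0.270%, 0.504% and 0.186%. Against photoreceptor precursors *Hes6*, *Gadd45g* and *Olig2* thus went with the label and *Insm1* did not, while *Sstr2* was scarcely detected. Of 6 such markers with enough UMIs, 1 was at least 2-fold higher than in photoreceptor precursors in all 3 libraries. Against cycling progenitors, described below, 0 of 6 were.

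The abundance of the precursors depended on how cells were counted. They were 11.2% (10.5 to 11.8%) of cells kept in the WT library, 6.63% (6.18 to 7.10%) in the *Tspan12* KO library and 1.05% (0.837 to 1.29%) in the *Ctnnb1* cKO library. That last library held far more microglia (2721 cells, against 312 and 432), and among cells under the endothelial and microglial limits the shares were 12.6% of 8288, 7.38% of 10401 and 4.41% of 1928. When each cell was first thinned to 2000 UMIs and the same rule applied, 4.60% of 8708 WT cells (401 cells) and 4.56% of 9106 *Tspan12* KO cells (415 cells) remained precursors. The *Ctnnb1* cKO share was then 0.464% of 6029 cells (28 cells). At 2000 UMIs the limit of the rule genes is reached with 2 UMIs, so that these shares describe a coarser rule and do not replace those by depth. The beads enrich other cells, so that none of these shares is a share of the retina.

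The share also varied with depth within a library. In the WT library the precursors were 2.08% of cells with 1000 to 2000 UMIs, 7.72% at 2000 to 5000, 17.7% at 5000 to 10000, 18.5% at 10000 to 30000 and 21.3% above 30000 UMIs. In the *Tspan12* KO library the same bins held 1.60%, 7.43%, 10.7%, 11.5% and 6.42%. The 2 libraries were close below 5000 UMIs and apart above. In the *Ctnnb1* cKO library the shares were 3.18%, 3.94%, 4.32%, 9.77% and 14.3%, the last from 3 precursors.

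The deepest cells differed from the others in content as well. Cells above 30000 UMIs were 6.78% of WT precursors (71 cells) and gave 32% of their UMIs, and 9.24% of *Tspan12* KO precursors (71 cells) and gave 37.8%. In WT, *Neurog2* was at 193 CPM in precursors of 2000 to 5000 UMIs, at 275 CPM at 5000 to 10000 and at 56.8 CPM above 30000. *Gadd45g* was at 386, 419 and 74.5 CPM in those bins, while *Sag*, the rod arrestin, was at 107, 144 and 760 CPM. The rule asks for a fixed sum per 10000, which a deep cell reaches with more of its UMIs elsewhere, so that part of the decline of the rule genes with depth is set by the rule. *Gadd45g* and *Sag* were not in it. Summed levels are therefore also given for precursors under 10000 UMIs, a cut chosen after the values were seen.

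**Figure D2:**
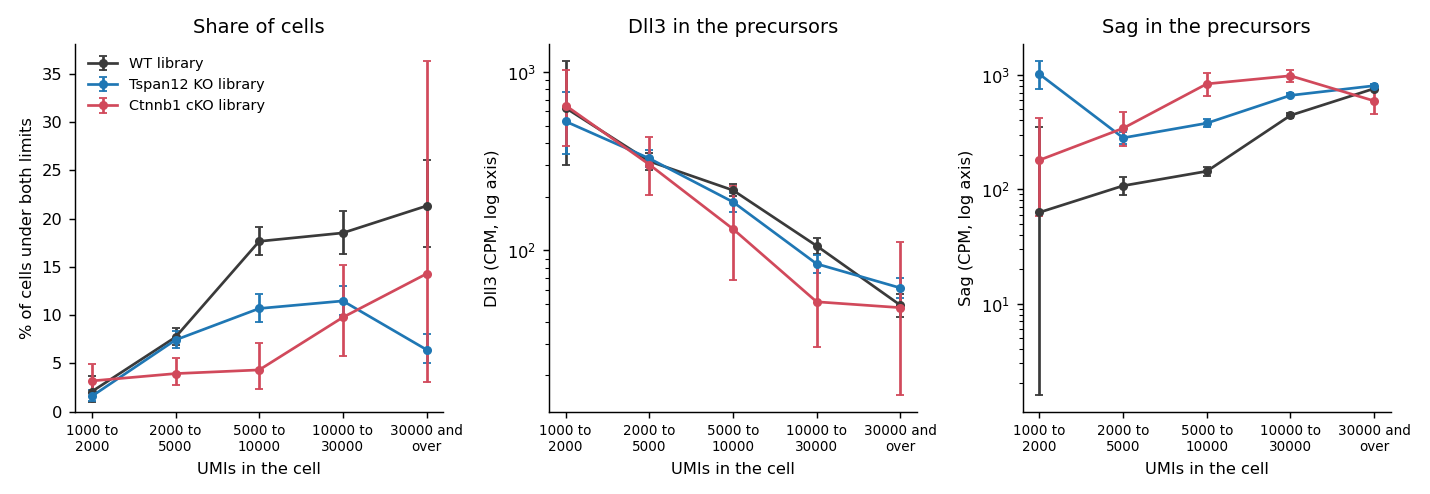
Left, share of cells under the endothelial and microglial limits that were neurogenic precursors, by UMIs in the cell, with exact 95% binomial intervals; middle and right, *Dll3* and *Sag* in those precursors in CPM on log axes, with exact Poisson intervals. In WT the share is 2.08% in the lowest and 21.3% in the highest bin, with *Dll3* at 628 and 49.4 CPM and *Sag* at 62.8 and 760 CPM. The rule itself sets part of the change in share and in *Dll3*.

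At the threshold itself, 138 WT, 217 *Tspan12* KO and 12 *Ctnnb1* cKO precursors had a sum of the rule genes of 8 to 10 per 10000, and 139, 295 and 23 cells that met the other limits had 6 to 8. In the WT library *Hes6* was at 307 CPM inside and 265 CPM outside, *Gadd45g* at 105 and 71.1 CPM, and *Sag* at 661 and 966 CPM. In the *Tspan12* KO library *Hes6* was at 284 and 281 CPM and *Sag* at 743 and 1024 CPM. In the *Ctnnb1* cKO library, with few cells on either side, *Hes6* was at 228 and 334 CPM and *Sag* at 898 and 885 CPM. The rod gene was thus higher outside in the WT and *Tspan12* KO libraries and not in *Ctnnb1* cKO.

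To ask which fates the precursors carried, transcripts of fate genes were counted in the thinned cells. *Otx2*, the factor of photoreceptor and bipolar fates, had a UMI in 90.6% (88.7 to 92.3%) of WT, 91.3% (89.0 to 93.2%) of the *Tspan12* KO and 87.9% (77.5 to 94.6%) of *Ctnnb1* cKO precursors. That matched or passed the 86.7%, 85.7% and 74.2% of photoreceptor precursors, and it was far above the 27.5%, 50.9% and 38.5% of cycling progenitors and the 16.2%, 25.6% and 7.10% of microglia. *Crx*, its photoreceptor target, was found in 48.2% (45.1 to 51.3%), 48.4% (44.7 to 52.0%) and 57.6% (44.8 to 69.7%) of the precursors. *Prdm1*, which favours photoreceptors over bipolar cells, was found in 45.2%, 44.0% and 45.5%.

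Genes of more advanced rods were rarer in the precursors than in photoreceptor precursors. *Nrl*, the rod fate switch, had a UMI in 24.2% (21.6 to 27.0%) of WT, 33.4% (30.0 to 36.9%) of the *Tspan12* KO and 48.5% (36.0 to 61.1%) of *Ctnnb1* cKO precursors, against 71.7%, 65.4% and 69.9% of photoreceptor precursors. *Nr2e3*, a nuclear receptor that keeps rods from cone fates, was found in 32.4% (29.6 to 35.4%), 42.8% (39.2 to 46.4%) and 59.1% (46.3 to 71.0%) of the precursors, against 83.4%, 77.3% and 78.3%, and in 13.2%, 13.2% and 6.93% of microglia. Both genes had been used to choose the photoreceptor precursors. In both genes the shares of the knockout libraries stood above WT.

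The other fates were carried by few cells. *Isl1*, of bipolar and some inner retinal neurons, had a UMI in 6.47%, 9.95% and 4.55% of the precursors. *Tfap2b* was found in 5.69%, 5.59% and 6.06% of the precursors, near the 4.86%, 4.40% and 5.75% of photoreceptor precursors. *Prdm13* was found in 5.31%, 4.22% and 7.58%, above the 2.23%, 2.38% and 2.78% there. *Ptf1a* was found in 2.51%, 1.5% and 1.52%. *Atoh7*, the competence factor of ganglion cells, was found in 3.57% (2.53 to 4.89%), 0.681% (0.222 to 1.58%) and 0 of 66 precursors. *Pou4f2*, a ganglion cell factor, had a UMI in 0 of the thinned precursors, which allows a share of up to 0.290%, 0.409% and 4.55% with a UMI at this depth and sets no limit on cells that express the gene. Without thinning, *Ctnnb1* cKO precursors held 3 UMIs of *Atoh7*.

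**Figure D3:**
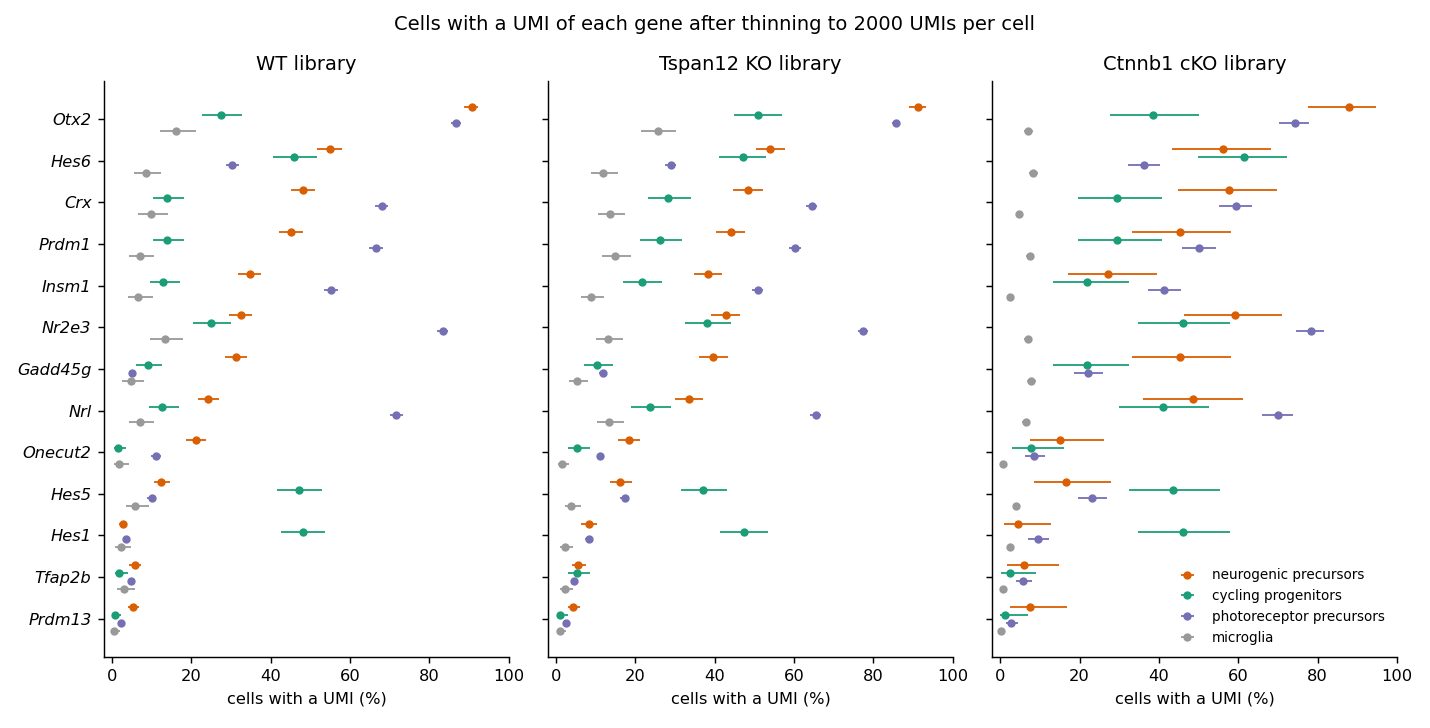
Share of cells with a UMI of each gene (percent) after thinning to 2000 UMIs, in neurogenic precursors, cycling progenitors, photoreceptor precursors and microglia of the 3 libraries, with exact 95% binomial intervals. *Otx2* is at 87.9 to 91.3% in neurogenic precursors, *Hes1* at 2.70 to 8.17% there and at 46.2 to 48.1% in cycling progenitors, and *Nr2e3* differs between the libraries from 32.4% to 59.1%.

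The fate genes did not spread evenly over the precursors. At least 1 UMI of *Ptf1a*, *Foxn4*, *Tfap2a*, *Tfap2b*, *Onecut1* or *Prdm13* was present in 12.5% of WT (130 cells), 12.8% of the *Tspan12* KO (94) and 13.6% of *Ctnnb1* cKO (9) precursors, against 3.68%, 4.56% and 1.25% of microglia. In WT such a UMI was found in 9.48% (7.68 to 11.5%) of the 939 precursors with *Otx2* and in 42.3% (32.3 to 52.7%) of the 97 without it. In *Tspan12* KO the shares were 10.3% (8.10 to 12.9%) of 670 and 39.1% (27.1 to 52.1%) of 64, and in *Ctnnb1* cKO 6 of 58 and 3 of 8 cells. In the WT and *Tspan12* KO libraries the few precursors without detected *Otx2* thus held at least 1 of the 6 factors more often, but not each of them. *Onecut1* was in 21 of 939 WT precursors with *Otx2* and in 0 of 97 without it (interval up to 3.73%), and in *Tspan12* KO in 10 of 670 and 0 of 64 (up to 5.6%). *Prdm13* alone was in 2.56% of WT precursors with *Otx2* and in 32% without it.

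The precursors were next compared with cycling progenitors, cells with a sum of progenitor genes that included *Sfrp2*, *Fgf15*, *Ccnd1* and *Lhx2* and with high cycling genes, of which there were 332, 296 and 92. Of 4948 genes compared, 43 (0.869%) were at least 2-fold higher and 195 (3.94%) at least 2-fold lower in the precursors in all 3 libraries. The rule's cycling limit fixed part of this, and 13 of the 13 G2/M genes compared were lower. Of the Notch targets, 4 of the 5 compared were lower in all 3 libraries, with list medians of -2.35, -1.40 and -2.03 on the log2 scale against 0.12, 0.06 and 0.06 over all genes compared.

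Among the Notch targets, *Hes1*, the progenitor repressor of proneural genes, was lower, with a log2 ratio of -3.74 for WT, -2.50 for *Tspan12* KO and -3.18 for *Ctnnb1* cKO. *Id1* and *Id3*, which block helix-loop-helix factors, were at -2.49, -1.74 and -2.23 and at -2.27, -1.08 and -2.03. *Nrarp*, a feedback inhibitor of Notch, was at -2.05, -1.40 and -1.62. *Hes5* was at -2.35, -0.98 and -1.60, just short of 2-fold in the *Tspan12* KO library. In thinned cells *Hes1* had a UMI in 2.70%, 8.17% and 4.55% of the precursors and in 48.1%, 47.3% and 46.2% of cycling progenitors, with microglia at 2.21%, 2.28% and 2.45%.

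On the sending side of the pathway, no ligand other than the rule gene *Dll3* had enough UMIs in all libraries for this comparison, so that the values are given as they stand. *Dll1* was at 0.59, 0.75 and 0.77 above cycling progenitors, and *Dll4* at 2.02, 1.41 and 0.32. *Dner*, another Notch ligand, was at 1.55, 0.64 and 1.31, *Jag1* at 0.44, 0.16 and 0.42, and *Jag2* at 0.70, 0.40 and 0.42, the last 2 from at most 46 UMIs in the precursors of a library. *Notch1*, a receptor, was lower at -0.82, -0.72 and -0.80. *Lfng*, which glycosylates Notch receptors, was lower at -3.20, -2.18 and -2.23, from 125, 102 and 5 UMIs in the precursors. The direction of *Notch1* and *Lfng* was not that of their list, since the 4 receptors and modifiers with enough UMIs had medians of 0.38, 0.23 and 0.41, with 0 at least 2-fold higher and 0 lower in all 3 libraries.

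Of 15 progenitor and Muller genes outside the rules, 3 were at least 2-fold lower than in cycling progenitors in all 3 libraries, with medians of -0.83, -0.53 and -0.51. Of 7 proneural factors outside the rules, 1 was 2-fold higher and 0 lower, with medians of 0.17, 0.18 and 0.20. *Sox2*, a progenitor factor, was at -2.0, -1.12 and -1.93, and *Ccnd1*, which the progenitor rule used, at -2.81, -2.31 and -2.28. *Hes6* was close to the progenitor level at 0.04, -0.21 and -0.39. *Otx2* was higher at 2.27, 1.01 and 1.63, and *Onecut2*, a factor of early retinal fates, at 2.24, 1.14 and 1.37. *Gadd45g* was higher at 2.18, 1.52 and 0.95. The 10 genes with the largest least ratio included *Cntnap5a*, a contactin-associated protein, at 2.94, 1.84 and 3.74, the bipolar factor *Lhx4* at 3.12, 1.37 and 1.59, the Wnt ligand *Wnt5b* at 2.91, 1.62 and 1.32, and the netrin receptor *Dcc* at 2.70, 1.31 and 2.73. *Clvs1*, *Grik1*, *Cacna2d1*, *Zfhx4*, *Car10* and *Cadps* made up the rest. The 10 lowest were *Neil3*, *Ccnb1*, *Pbk*, *Ndc80*, *E2f7*, *Kif23*, *Kif4*, *Ect2*, *Dlgap5* and *Cdca8*, several of which encode parts of the division machinery and fall under the cycling limit.

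Photoreceptor precursors, the next population compared, numbered 3215, 5635 and 679 cells. Of 9635 genes compared, 47 (0.488%) were at least 2-fold higher and 25 (0.259%) at least 2-fold lower in neurogenic precursors in all 3 libraries. Rod genes were lower, 3 of 12 by 2-fold in all 3 libraries, with medians of -1.53, -1.20 and -0.75. *Rcvrn*, the calcium sensor recoverin, was at -1.71, -1.30 and -1.62, and *Sag* at -1.54, -1.18 and -0.72. The rod factors *Nrl* (-1.37, -0.81 and -0.60) and *Nr2e3* (-1.52, -0.94 and -0.40) had been used to choose the photoreceptor precursors. *Gadd45g* was higher at 2.54, 1.53 and 0.93, and *Olig2* at 3.44, 1.98 and 2.33. *Insm1* was lower at -0.64, -0.63 and -0.07.

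Among the 10 genes that stood highest over photoreceptor precursors, *Robo1*, an axon guidance receptor, was at 2.47, 1.88 and 2.23, *Nlgn1*, a synaptic adhesion protein, at 1.71, 1.33 and 1.46, and *Wnt5b* at 2.59, 1.76 and 1.32. *Kcnc2*, a potassium channel, was at 1.72, 1.34 and 1.62. The others were *Hs3st1*, *Cnksr2*, *Peak1*, *Nol4*, *Sh3rf3* and *2610307P16Rik*. *Wnt5b* was the 1 gene among the 10 highest against both cycling progenitors and photoreceptor precursors. The 10 lowest were *Guca1a*, *Tnfsf12*, *Rcvrn*, *Rgs5*, *A930003A15Rik*, *Gnat1*, *Gm56779*, *Pde6g*, *Ankrd33* and *Pde6h*, of which *Gnat1* had 0 UMIs in *Ctnnb1* cKO precursors.

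**Figure D4:**
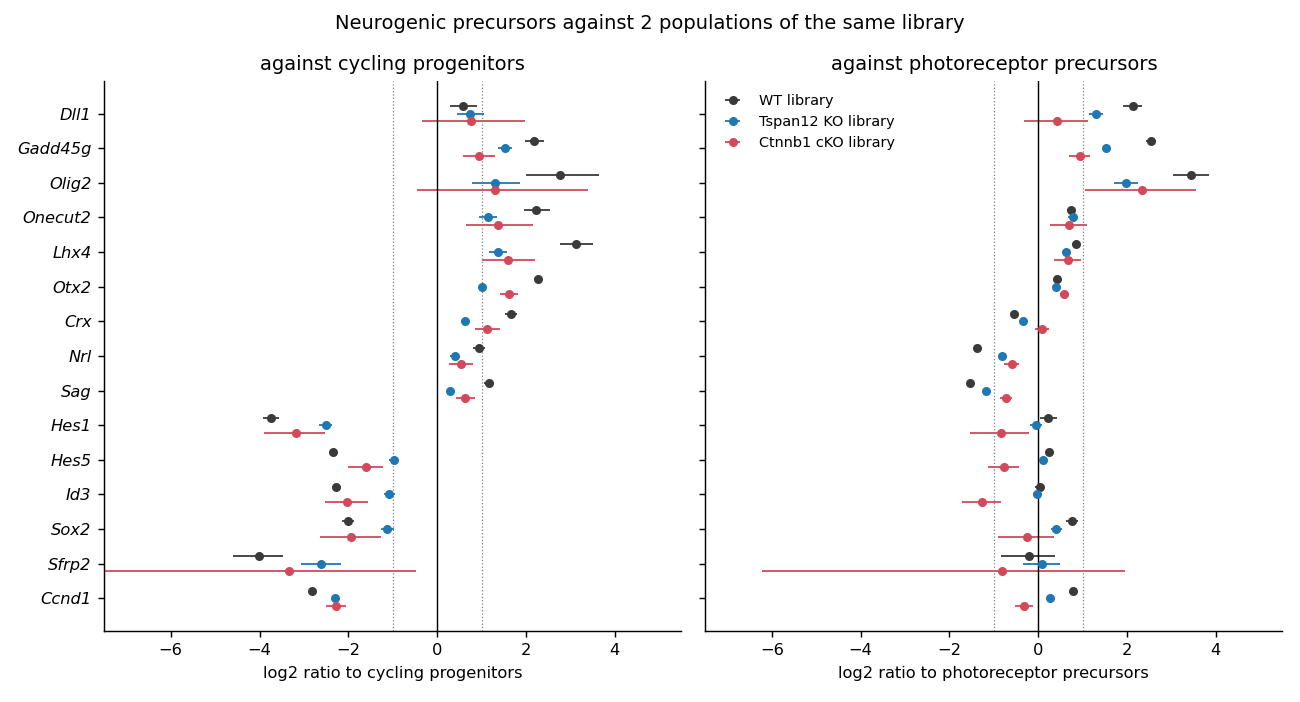
Log2 ratio of the level in neurogenic precursors to that in cycling progenitors (left) and photoreceptor precursors (right) of the same library, with exact 95% intervals; dotted lines mark 2-fold. *Hes1* lies at -2.50 or lower against cycling progenitors in all 3 libraries, and *Sag* at -0.72 or lower against photoreceptor precursors.

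Cells with the same neurogenic sum but with cycling genes at 3 per 10000 or more numbered 147, 117 and 25, so that the non-cycling precursors were 87.7%, 86.8% and 77.3% of all cells with that sum. Against these cycling neurogenic cells, of 3449 genes compared, 0 (0%) were at least 2-fold higher and 13 (0.377%) at least 2-fold lower in all 3 libraries. The lower genes included *Hmgb2*, a chromatin protein of dividing cells, at -2.28, -2.08 and -2.07, and *Ccnd1* at -1.92, -1.67 and -1.34. *H1f10*, *Tubb4b*, *H2az1*, *Smc4*, *Pkp4*, *Lmnb1*, *Zfp36l1* and *Myb* were among the 10 lowest. *Hes1* was at -2.04, -1.63 and -1.78, lower in the non-cycling cells of each library, although it lay below the UMI limit of that count in *Ctnnb1* cKO. Of the 2 Notch targets that reached the limit, 0 were 2-fold lower in all 3 libraries.

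To compare genotypes within the precursors, each knockout library was set against WT for genes with at least 50 UMIs over both. In *Tspan12* KO precursors 121 of 13083 genes (0.925%) were at least 2-fold higher and 169 (1.29%) at least 2-fold lower than in WT. In *Ctnnb1* cKO precursors, with 616691 UMIs against 11835861 in WT, 531 of 11949 genes (4.44%) were at least 2-fold higher and 1248 (10.4%) lower. With at least 20 UMIs expected in the smaller library these were 95 (1.6%) and 288 (4.86%) of 5923 genes. Over all genes the median log2 ratio was 0.00 for *Tspan12* KO and -0.10 for *Ctnnb1* cKO. Intervals lay above 0 for 22.2% of genes and below 0 for 20.02% in *Tspan12* KO, and for 12.1% and 14.3% in *Ctnnb1* cKO.

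The targeted genes were examined first. *Ctnnb1* was at 171 CPM (163 to 178) for WT, 169 (161 to 178) for *Tspan12* KO and 167 (136 to 203) for *Ctnnb1* cKO precursors, and the 3 intervals overlapped. This deletion was endothelial. *Tspan12* was at 7.01 CPM (83 UMIs) for WT, 8.41 CPM (80 UMIs) for *Tspan12* KO and 4.86 CPM (3 UMIs) for *Ctnnb1* cKO precursors. A knockout allele can keep its 3′ end, which is the part counted, so that this level checks no label. Of the Norrin and Wnt pathway list, 11 of 12 genes were compared in *Tspan12* KO, and *Ndp*, which encodes Norrin, was the 1 gene at least 2-fold higher, at 5.89 CPM (56 UMIs) against 2.70 CPM (32 UMIs), with 0 lower. Over all genes 0.925% were higher in *Tspan12* KO. In *Ctnnb1* cKO precursors, where 4.44% of all genes were higher and 10.4% lower, 9 were compared, with 1 higher and 1 lower. These were *Lef1*, a nuclear partner of beta-catenin, at 14.6 CPM from 9 UMIs and *Nkd1*, a feedback inhibitor of Wnt signaling, at 6.49 CPM from 4 UMIs against 22.6 CPM in WT.

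Rod genes stood above WT in both knockout libraries. In *Tspan12* KO precursors 0 of 12 rod genes were 2-fold higher, 11 had an interval above 0, and their median log2 ratio was 0.55. Over all genes compared there, 0.925% were 2-fold higher and 22.2% had an interval above 0. In *Ctnnb1* cKO precursors 3 of the 11 compared were 2-fold higher, 9 had an interval above 0, and the median was 0.69. Over all genes those shares were 4.44% and 12.1%. *Pde6b*, a subunit of the rod phosphodiesterase, was at 97.0 CPM (91.5 to 103) for WT, 164 (156 to 172) for *Tspan12* KO and 362 (316 to 412) for *Ctnnb1* cKO, with ratios of 0.76 (0.65 to 0.87) and 1.90 (1.69 to 2.11). *Sag* was at 434 CPM (422 to 446), 638 (622 to 655) and 752 (685 to 824), with ratios of 0.56 and 0.79. The order from WT through *Tspan12* KO to *Ctnnb1* cKO was the same for these genes, with no overlap between the intervals of any 2 libraries.

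For *Pde6b* this order was also seen in photoreceptor precursors, at 260, 356 and 642 CPM, and for *Sag* it was not, at 1260, 1449 and 1238 CPM. In microglia *Pde6b* was at 8.17, 34.1 and 29.0 CPM and *Sag* at 70.0, 180 and 71.3 CPM, so that free rod RNA differed between the libraries as well, and its part in the result was not tested. In precursors under 10000 UMIs the median rod ratios were 1.42 and 1.67, and after thinning every precursor to 2000 UMIs they were 0.99 and 1.11. The direction was therefore the same, and the size larger, without the deepest cells. The precursors also differed in how far they passed the rule. Their median sum of the rule genes was 18.2 per 10000 for WT, 12.9 for *Tspan12* KO and 14.8 for *Ctnnb1* cKO. Those just above the limit had *Sag* at 661, 743 and 898 CPM, above the level over all precursors of each library. The ratios were not matched for this sum, and its part in the rod result was not tested. In the sum over all precursors, the factors above the rod genes lay below the rod median of 0.55 in *Tspan12* KO. In *Ctnnb1* cKO *Nrl* and *Nr2e3* lay above the rod median of 0.69. *Otx2* had ratios of -0.01 and -0.16, *Crx* of 0.13 and 0.42, *Nr2e3* of -0.05 and 0.83, and *Nrl* of 0.41 (0.33 to 0.48) and 0.96 (0.78 to 1.13). Of 11 photoreceptor fate genes 0 were 2-fold higher or lower in either library, with medians of 0.05 and 0.42.

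Cone genes were mostly above WT in *Tspan12* KO and divided in *Ctnnb1* cKO. In *Tspan12* KO 3 of 6 compared were 2-fold higher and 0 lower, with a median of 0.98, and in *Ctnnb1* cKO 0 of 4 were higher and 2 lower, with a median of -1.38. Over all genes 0.925% were 2-fold higher in *Tspan12* KO and 10.4% lower in *Ctnnb1* cKO. The 2 lower genes, *Pde6h* and *Gnat2*, had 1 UMI each in *Ctnnb1* cKO. *Gngt2*, a transducin subunit that made up most of the cone sum, was at 654, 779 and 889 CPM, and the sum over all 8 listed genes was 723, 974 and 913 CPM, above WT in both knockout libraries. *Pde6h*, a cone phosphodiesterase subunit, was at 25.2 CPM for WT, 102 CPM for *Tspan12* KO and 1.62 CPM, from 1 UMI, for *Ctnnb1* cKO. *Opn1sw*, short-wave cone opsin, was at 28.1, 65.1 and 19.5 CPM. In photoreceptor precursors *Pde6h* was at 125, 227 and 38.5 CPM, and in microglia at 6.91, 33.6 and 4.28 CPM, the same order of the libraries. The part of free RNA was not tested here either.

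**Figure D5:**
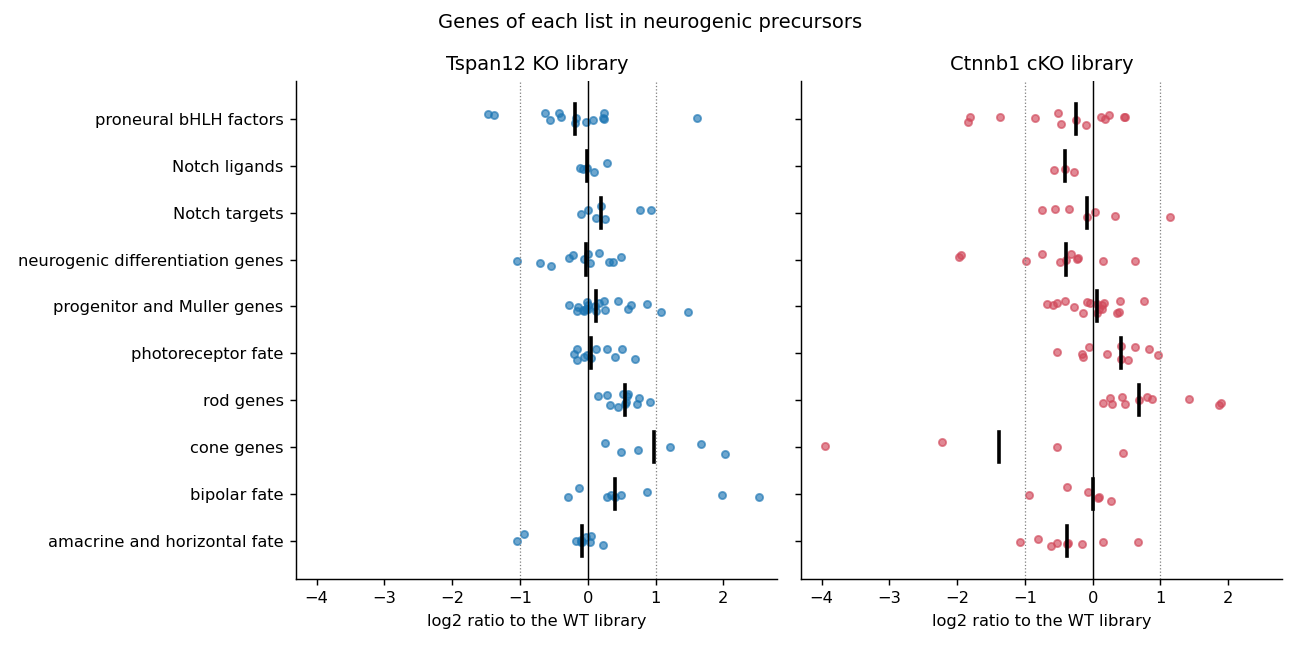
Log2 ratio of each knockout library to WT in neurogenic precursors for the genes of each list with at least 50 UMIs over both libraries (points), with the list median as a bar; dotted lines mark 2-fold. Rod genes have medians of 0.55 and 0.69, and cone genes of 0.98 (left) and -1.38 (right), the latter over 4 genes of which 2 had 1 UMI. The 5 rule genes are left out.

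The proneural list had medians below WT in both knockout libraries. Of 18 listed, 16 were compared in *Tspan12* KO, with 1 at least 2-fold higher, 2 lower and a median of -0.29, and 15 in *Ctnnb1* cKO, with 0 higher, 3 lower and a median of -0.24. The shares of all genes were 0.925% higher and 1.29% lower in *Tspan12* KO, and 4.44% and 10.4% in *Ctnnb1* cKO. The list holds the rule genes *Neurog2* and *Neurod4*, and without them the medians were -0.18 over 14 genes and -0.24 over 13. *Atoh7* was at 17.5 CPM (207 UMIs) for WT, 6.73 (64) for *Tspan12* KO and 4.86 (3) for *Ctnnb1* cKO. *Ptf1a* was at 25.2 CPM (298 UMIs), 9.04 (86) and 9.73 (6). Their log2 ratios in *Tspan12* KO were -1.38 (-1.81 to -0.97) and -1.48 (-1.84 to -1.13). Both early fate factors were thus lowest in the knockout libraries, where 3 and 6 UMIs carried the *Ctnnb1* cKO values. *Ptf1a* was at -0.81 in *Tspan12* KO precursors under 10000 UMIs, no longer 2-fold. *Bhlhe23*, a factor of rod bipolar cells, was the 1 higher gene, at 3.21 CPM in WT and 9.78 CPM in *Tspan12* KO.

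The general proneural factors had smaller ratios. *Hes6* was at 417 CPM for WT, 318 for *Tspan12* KO and 292 for *Ctnnb1* cKO, below WT in both. Its log2 ratios as means over cells were -0.33 and -0.15, and the thinned shares of precursors with *Hes6*, given above, were close to each other. *Neurod1*, which drives photoreceptor and amacrine differentiation, was at 1263, 1114 and 1746 CPM. *Neurod2* was at 22.8, 15.6 and 6.49 CPM, the last from 4 UMIs.

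The amacrine and horizontal list had 1 of 10 genes 2-fold lower in *Tspan12* KO and 1 of 9 in *Ctnnb1* cKO, with 0 higher and medians of -0.09 and -0.38. Over all genes 1.29% and 10.4% were 2-fold lower, so that 1 of 9 is near the share of all genes. *Tfap2b* was at 65.2 CPM for WT, 31.7 for *Tspan12* KO and 45.4 for *Ctnnb1* cKO, and *Prdm13* at 45.2, 23.4 and 25.9 CPM. The share of thinned precursors with any of the 6 amacrine or horizontal factors was, however, 12.5%, 12.8% and 13.6%. *Tfap2b* had a ratio of -1.04 in *Tspan12* KO in the sum, -0.17 after thinning and -0.11 in precursors under 10000 UMIs, so that its lower sum was not seen without the deepest cells.

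In the sum, no ligand, receptor or modifier of the Notch pathway was 2-fold higher or lower in either library. That covered 6 ligands, the rule gene *Dll3* included, and 10 receptors and modifiers in *Tspan12* KO and 4 and 10 in *Ctnnb1* cKO. Ligands passed 2-fold as means over cells in *Ctnnb1* cKO only, with ratios of -1.47 for *Dner*, -1.28 for *Dll4* and 1.01 for *Jag2*. *Dll1* was at 45.1, 43.0 and 34.1 CPM and *Dll4* at 13.7, 14.6 and 11.4 CPM, with intervals that overlapped. Of 7 Notch targets 0 were 2-fold higher in the sum in *Tspan12* KO, and *Hey1* in *Ctnnb1* cKO was 2-fold higher on 6 UMIs, with 0 lower in both. As means over cells, the 7 ratios in *Tspan12* KO ran from -0.14 for *Nrarp* to 1.27 for *Hes1*, the latter past 2-fold. In *Ctnnb1* cKO they ran from -1.37 for *Id1* to 1.28 for *Hey1*. *Hes1* was at 28.3 CPM (25.4 to 31.5) for WT, 53.8 (49.3 to 58.7) for *Tspan12* KO and 35.7 (22.4 to 54.0) for *Ctnnb1* cKO. In photoreceptor precursors *Hes1* was at 24.1, 55.7 and 63.3 CPM, so that the gap between WT and *Tspan12* KO was of like size there.

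Muller and progenitor genes had 2 of 20 members 2-fold higher in *Tspan12* KO, against 0.925% of all genes, with 0 lower and a median of 0.12. In *Ctnnb1* cKO 0 of 18 were 2-fold apart in either direction, with a median of 0.07. *Rlbp1*, the retinaldehyde-binding protein of Muller glia, was at 50.6 CPM for WT, 141 for *Tspan12* KO and 66.5 for *Ctnnb1* cKO, a ratio of 1.48 (1.34 to 1.62) for *Tspan12* KO. The other was *Sfrp2*, at 2.79 and 5.89 CPM. *Slc1a3*, the glial glutamate transporter, was at 131, 240 and 144 CPM. Photoreceptor precursors had *Rlbp1* at 53.9, 146 and 87.4 CPM and *Slc1a3* at 135, 217 and 171 CPM, close to the levels in the neurogenic precursors, and microglia had *Rlbp1* at 9.42, 23.4 and 13.0 CPM. Of the bipolar list, *Grm6*, the glutamate receptor of ON bipolar cells, was at 2.03 CPM for WT and 11.7 CPM for *Tspan12* KO, with 0 UMIs in *Ctnnb1* cKO, and *Vsx1* at 2.96, 11.7 and 1.62 CPM. These were 2 of 9 bipolar genes compared in *Tspan12* KO, against 0.925% of all genes higher, with 0 lower and a median of 0.40. In photoreceptor precursors *Grm6* was at 4.97, 18.1 and 3.31 CPM.

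Genes of neuronal differentiation lay on both sides of WT. In *Tspan12* KO 0 of 12 were 2-fold higher and 1 lower, with a median of -0.02, and in *Ctnnb1* cKO 0 of 11 were higher and 2 lower, with a median of -0.40. Over all genes 1.29% and 10.4% were 2-fold lower. *Tubb3*, neuronal beta-tubulin, was at 244 CPM (235 to 253) for WT, 342 (330 to 354) for *Tspan12* KO and 63.2 (45.0 to 86.5) for *Ctnnb1* cKO. In photoreceptor precursors *Tubb3* was at 109, 217 and 82.9 CPM and in microglia at 22, 46.3 and 7.88 CPM, with the libraries in the same order. *Gadd45a* was at 50.9, 31.2 and 13.0 CPM, and *Stmn2*, a microtubule regulator of growing axons, at 43.5, 21.0 and 25.9 CPM. *Gadd45g* was higher in both knockout libraries, at 216 CPM (208 to 225), 244 (234 to 254) and 332 (288 to 381), and so it was in photoreceptor precursors at 37.2, 84.8 and 174 CPM. *Btg2*, which slows the cell cycle of neurogenic cells and is also an immediate early gene, was at 1119, 1393 and 564 CPM, and in microglia at 1568, 1181 and 587 CPM.

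Cell cycle lists held few differences. Over 17 S phase genes compared for *Tspan12* KO and 14 for *Ctnnb1* cKO, 0 were 2-fold higher or lower. Of the G2/M genes outside the rule 0 of 15 were 2-fold apart in *Tspan12* KO, and 2 of 12 were higher and 2 lower in *Ctnnb1* cKO, all on small counts, such as *Ccnb2* at 7 UMIs and *Cks2* at 11 UMIs. Over all genes in *Ctnnb1* cKO 4.44% were higher and 10.4% lower. Of the cell cycle exit list *Cdkn1a*, a stress-induced inhibitor of cyclin-dependent kinases, was at 9.29 CPM (110 UMIs), 4.52 (43) and 27.6 (17), lower in *Tspan12* KO and higher in *Ctnnb1* cKO. *Cdkn1c*, a related inhibitor of retinal progenitors, was at 74.4, 72.6 and 64.9 CPM. Immediate early genes had 0 of 10 members 2-fold apart in the sum in either library. In *Tspan12* KO 9 of them had an interval above 0 and 1 below, with a median of 0.31, where 22.2% of all genes lay above and 20.02% below. In *Ctnnb1* cKO 4 lay above and 4 below, with a median of -0.05. Of the ganglion cell list 3 of 8 genes reached the UMI limit with *Tspan12* KO and 1 with *Ctnnb1* cKO.

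The genes highest over WT in both knockout libraries together were *Col9a1*, *Mt2*, *Llgl2*, *S1pr3* and *F630040K05Rik*. *Col9a1*, a collagen gene, was at 11 CPM for WT, 31.9 for *Tspan12* KO and 60.0 for *Ctnnb1* cKO (37 UMIs), and its *Ctnnb1* cKO ratio of 2.45 went to -0.03 in precursors under 10000 UMIs. *Mt2*, a metallothionein, was at 14.1, 36.7 and 38.9 CPM, and at 7.32, 27.0 and 34.0 CPM in photoreceptor precursors. The lowest included *Krt73*, *Gm43920*, *Lamc3* and *Eif2s3y*. *Krt73*, a keratin, was at 12.4 CPM (147 UMIs) for WT and 0.526 CPM (5 UMIs) for *Tspan12* KO, with 0 UMIs in *Ctnnb1* cKO precursors, at least 2.55-fold lower at a floor of 3 counts. *Lamc3* and *Gm43920* also had 0 UMIs there. The WT level of *Lamc3*, 5.83 CPM, lay near that floor of 4.86 CPM, and that of *Gm43920*, 4.31 CPM, below it. Their log2 intervals in *Ctnnb1* cKO reached 0.08 and 0.53, so that neither is shown to be lower there. Their rank rests on the *Tspan12* KO ratio. *Eif2s3y*, on the Y chromosome, was at 101, 25.1 and 29.2 CPM, and *Xist*, which is made from an inactive X and was looked up after the values were seen, at 383, 1296 and 709 CPM. The proportion of female and male cells and the genotype cannot be told apart in these ratios.

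Transcripts listed as markers of other cells were also measured in the precursors, over lists that shared no gene with the rule. The 5 endothelial markers summed to 205 CPM for WT, 183 for *Tspan12* KO and 256 for *Ctnnb1* cKO, with none at 0. Much of this was *Kdr*, at 121, 151 and 90.5 CPM as means over cells. Of the 4 compared in *Tspan12* KO, 3 had an interval below 0 and 1 above, with a median log2 ratio of -0.68. The WT sum was 416 CPM in cycling progenitors and 153 CPM in microglia, so that it is not a measure of endothelial RNA alone. The 5 microglial markers summed to 45.9, 34.6 and 161 CPM, with *Tmem119* at 0 in *Ctnnb1* cKO, and the 4 red cell markers to 47.7, 49.9 and 185 CPM. The *Ctnnb1* cKO precursors were thus highest in all 3 lists, as their photoreceptor precursors were in endothelial (151, 145 and 306 CPM) and microglial (56.3, 43.8 and 176 CPM) markers. Astrocyte markers summed to 4.56, 10.6 and 11.4 CPM, with *Gfap* at 0 in WT and *Ctnnb1* cKO. The part of these transcripts in the genotype ratios was not tested.

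Depth and quality differed between the libraries as follows. The precursors had a median of 6490 UMIs and 2974 genes in WT, 6484 UMIs and 3095 genes in *Tspan12* KO, and 3994 UMIs and 2115 genes in *Ctnnb1* cKO. Their mitochondrial shares had medians of 2.31%, 1.80% and 0.623%. Between 21 and 37 cell barcodes were shared by any pair of libraries, at most 0.393% of a library. When the highest doublet scores were removed, 146 WT, 123 *Tspan12* KO and 3 *Ctnnb1* cKO precursors were lost. These were 13.9%, 16.0% and 3.53% of the precursors, against 7.80%, 11.5% and 7.31% of all cells, so that high scores were more frequent among precursors in WT and *Tspan12* KO.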

How the data were processed

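The deposited matrices hold raw UMI counts of each gene in each cell barcode, as the authors obtained them from Cell Ranger. The matrix headers name cellranger 8.0.1 and the submitters' processing notes name GRCm39, while the methods name another version and build, so that no coordinates are taken from the files. Barcodes had 500 UMIs or more and 33696 genes were listed. The libraries held 92684519 UMIs (WT), 137114957 (*Tspan12* KO) and 37008362 (*Ctnnb1* cKO).

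Counts were added up within a population and given as CPM with exact Poisson intervals. Ratios carry exact conditional binomial and shares Clopper-Pearson intervals, all at 95%. A count of 0 was read against a floor of 3 counts, and 2-fold calls needed 50 UMIs over both groups compared. Comparison populations used sums per 10000: cycling progenitors at least 8 with at least 10 for cycling genes, photoreceptor precursors at least 8, microglia at least 20. Cells were thinned to 2000 UMIs with a fixed seed. Doublets were scored with Scrublet in scanpy 1.11.5 and kept, and its automatic threshold, which called 1, 0 and 362 cells, was not used. As an alternative the highest scores were removed at 0.8% per 1000 cells.

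The genes named are the 5 rule genes, members of lists by role, the 5 highest and 5 lowest over both knockout libraries, and the 10 highest and 10 lowest against each comparison population. The members, the lists and these rules were chosen with earlier results of these data known. Ratio code was tested on simulated data. Python 3.11.15, numpy 2.4.6, pandas 2.3.3, scipy 1.17.1 and edgeR 4.0.16 in R 4.3.3 were used, the last for TMM scaling (a trimmed mean of log ratios) as an alternative. A few genes that enter these sums and lists are not reported here. The 3′ counts carry no gene length, so that levels are compared between groups and not between genes.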

Additional observations from a re-analysis of the deposited data

How the results depend on the processing

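With 1 library per genotype these values carry no replicate error, and the 616691 UMIs of *Ctnnb1* cKO precursors limit that library most. No paired analysis was possible because each genotype had 1 library and the labels give no replicate numbers. The WT share of precursors was 11.2% in the report, 8.33% at 12 per 10000 for the rule genes, 13.4% at 5, 8.42% with 3 rule genes detected, 11.9% with at least 2000 UMIs, 8.89% with cycling genes under 1, 10.4% without the highest doublet scores, 4.60% on thinned counts and 12.6% of cells under the endothelial and microglial limits. The *Tspan12* KO share of 6.63% was 3.69%, 10.9%, 4.88%, 8.06%, 5.57%, 4.56% and 7.38% under the same settings without the doublet one, and 5.41% with at least 500 UMIs. The *Ctnnb1* cKO share of 1.05% was 0.727% at 12 per 10000, 1.49% at 5, 0.665% with 3 rule genes, 0.464% on thinned counts and 4.41% under both limits.

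The count of genes at least 2-fold higher in *Tspan12* KO, 121, was 257 with at least 20 UMIs, 41 with at least 200, 78 at 12 per 10000 and 264 for means over cells, and the count lower, 169, was 450 with 20 UMIs, 41 with 200, 81 on thinned counts and 86 in precursors under 10000 UMIs. For *Ctnnb1* cKO the count higher, 531, was 974 with 20 UMIs, 175 with 200, 836 for means over cells and 95 with 20 UMIs expected in the smaller library, and the count lower, 1248, was 1923, 528, 2115 and 288. Against cycling neurogenic cells 3 genes were higher without the highest doublet scores, and 43 lower with 20 UMIs and 3 on thinned counts. Against cycling progenitors 371 were lower with 20 UMIs and 71 on thinned counts. Against photoreceptor precursors 39 were lower with 20 UMIs, 38 under TMM, 43 without doublet scores and 39 on thinned counts. The *Ctnnb1* cKO ratio of *Col9a1*, 2.45, was -0.61 at 12 per 10000 and -0.028 in precursors under 10000 UMIs. The cause of these differences was not tested. Over all alternatives, ratios of named genes moved by more than their counting error 112 times and did not 246 times, and list medians 13 and 147 times. The signs of the ratios of *Dll3* in both knockout libraries, of *Ctnnb1* in *Tspan12* KO and of *Neurod4*, *Insm1*, *Olig2*, *Tfap2b* and *Rlbp1* in *Ctnnb1* cKO differed under at least 1 alternative. Alternatives on 20 expected UMIs and on precursors under 10000 UMIs were chosen after seeing the data.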
